A study of Mus musculus with 15 samples.

Results

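The transferrin receptor gene Tfrc and 5 other iron-handling genes (Slc11a2, Fth1, Ftl1, Ireb2 and Aco1) were followed in Ba/F3-beta cells (BaF3 in the sample labels), derived from Ba/F3, a mouse pro-B line that needs IL-3 to grow. The members were all probe sets annotated to these 6 genes, of 17004 genes annotated on 3 murine Affymetrix array designs, named U74A, U74B and U74C, together with the 3 transferrin receptor control probe sets that each design carries. This gave 17 gene probe sets among 36701 non-control probe sets, and 9 control readings. The cells had been transfected with a control siRNA (scramble I) and left without IL-3, or given IL-3 for 30 min or 2 h after either the control siRNA or Stat5A and Stat5B siRNAs together, which target a pair of related transcription factors that the IL-3 receptor activates. Each of these 5 conditions was read on 1 array per design, 15 arrays in all. Stat5 siRNA cells without IL-3 were not analysed here, and the cells are 1 line. The 3 arrays of a condition were taken as repeat hybridisations of its RNA, not as replicates of the condition, so no p-value was computed and no difference between conditions has a replicate check.

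Iron enters dividing cells mainly as transferrin-bound iron, which the transferrin receptor takes up by endocytosis, and the transporter encoded by Slc11a2 (DMT1) moves it out of the endosome into the cytosol. Iron that is not used is stored in ferritin, a shell of heavy (Fth1) and light (Ftl1) subunits. The iron regulatory proteins IRP1 (Aco1) and IRP2 (Ireb2) bind iron-responsive elements when iron is scarce. They stabilise Tfrc mRNA and block translation of the ferritin mRNAs, so ferritin control acts largely on translation, which an mRNA array does not read. Blood cells entering the cell cycle are known to display more transferrin receptor, and Tfrc is a known target of MYC, of hypoxia-inducible factors and, in erythroid cells, of STAT5.

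After 2 h of IL-3 Tfrc was higher than without IL-3 on each of its 13 readings (4 gene probe sets and 9 control readings, with scaled signals as they stand), by 1.17-fold to 2.71-fold, with a median of 1.66-fold. At 30 min it was not: 10 of the 13 readings were lower than without IL-3 and 3 higher, with a median of 0.899-fold. The Stat5 siRNA did not shift it one way at 2 h, where 7 readings were higher and 6 lower than with control siRNA, with a median of 1.01-fold. No measured probe set of the other 5 genes passed 2-fold in any comparison. The Tfrc value as a gene, the median over its 4 gene probe sets, was 1.35-fold at 2 h of IL-3 with dim signals set to a floor and 1.67-fold without, and so did not pass 2-fold either.

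Signals are given in MAS5 units, the linear probe set summary of Affymetrix arrays, after each array had been scaled to a common trimmed mean. A floor of 119.8 stood in for the detection filters of the study, a ratio was called measured where at least 1 of its 2 signals reached the floor, and a lower signal was set to the floor unless stated. Where this was done to 1 of the signals, the true change is at least as large as the ratio. Of the 17 gene probe sets 13 reached the floor on at least 1 array, 4 of 4 for Tfrc, 5 of 5 for Fth1, 2 of 3 for Ireb2, 1 of 2 for Slc11a2, 0 of 2 for Aco1, and the only probe set of Ftl1. Of the 9 control readings 8 reached it. Levels of different probe sets are not comparable, so only conditions within a probe set are compared. A call means 2-fold or more and is a selection by size.

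After 30 min of IL-3 0.821% of all probe sets passed 2-fold upwards and 0.587% downwards, and after 2 h 2.49% and 2.04%. With Stat5 siRNA 0.416% were higher and 0.446% lower at 30 min, and 0.631% and 0.564% at 2 h. Median scaling moved the split of the calls at 30 min, from 109 higher and 78 lower to 155 and 54 for IL-3 and from 55 and 59 to 51 and 88 for the siRNA. With control and then Stat5 siRNA the brighter Stat5a probe set read 548 and 277 after 30 min of IL-3 and 475 and 254 after 2 h, and the U74B probe set of Stat5b read 499 and 166, and 177 and 126. Both Stat5a probe sets are of a kind that can cross-hybridise, and the U74A probe set of Stat5b stayed under the floor. Cish, a known STAT5 target, read 1096 and 389, and 1564 and 645. All 3 IL-3 receptor genes were above the floor on all 5 arrays of their design, while of 8 pro-B and B lineage markers on the arrays 1, Ptprc, was above it throughout. Erythroid markers were above it throughout for 3 of 5 genes (Gata1, Hba-a1 and Klf1), myeloid and mast cell markers for 0 of 6, T and NK markers for 0 of 4, and fibroblast and epithelial markers for 1 of 5.

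Tfrc encodes the receptor itself and is transcribed from chromosome 16. RefSeq promoter windows on GRCm38.p6, from 250 bases before to 50 after an annotated start, were matched for 5 of the 6 genes (not Slc11a2), 7 windows in all. The letters TTCNNNGAA, to which STAT factors bind, were in 0 of these 7 windows and in 8.3% of 32851 windows of the table, searched on both strands. The E-box CACGTG, to which MYC binds, was likewise in 0 of 7 and in 7.15% of the table. The antioxidant response letters TGACNNNGC were in 0 of 7 and in 12.4%. The bulge and loop letters of an iron-responsive element, on the sense strand only, were in 0 of 7 and in 10.4%. Such an element works in the mRNA, and a window ends 50 bases after its start. This count therefore cannot show whether the mRNA of a member carries one. The core ACGTG of the hypoxia response element, which every CACGTG also holds, was in 2 of 7 and in 19.6% of the table. Both were Tfrc windows, which overlap, and the match in them is 1 and the same site. These windows cover little of each gene, and a match or its absence is a description of the letters only.

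The stretch before the first annotated Tfrc start is shown because Tfrc is the only member with both 2 h arrays above the other 3 on each reading. It lies on the plus strand at chr16:32608646-32608895, and the bases that follow it are shown in a 30-base window at chr16:32608882-32608911 with the ACGTG core in capitals, which begins 2 bases before that start.
Tfrc upstream: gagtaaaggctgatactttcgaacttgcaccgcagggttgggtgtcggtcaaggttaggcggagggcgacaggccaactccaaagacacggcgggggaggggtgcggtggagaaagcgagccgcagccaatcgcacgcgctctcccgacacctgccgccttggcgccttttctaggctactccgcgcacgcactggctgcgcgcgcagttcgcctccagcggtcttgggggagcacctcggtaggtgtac
Tfrc ACGTG: ctcggtaggtgtACGTGcggaaggaagtga

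Tfrc, Fth1 and Ftl1 also each held the letters TATAA on the sense strand, chosen after the sequences were seen, which 17.5% of the table's windows hold. They are set side by side, 30 bases each with these letters in capitals, so that the receptor can be read beside both ferritin subunits. In Ftl1 they begin 17 bases and in Fth1 26 bases after an annotated start. In Tfrc they lie after the first annotated start and 172 bases before the second. Measured from these annotated starts, none lies where a TATA box usually does. Whether the letters act as a TATA box from another start was not tested. The Tfrc window is chr16:32608938-32608967 and the Fth1 window chr19:9982660-9982689, both on the plus strand, and the Ftl1 window is chr7:45459852-45459881 on the minus strand.
Tfrc: gtggggccgagcTATAAgctttgggtggga
Fth1: gcaggatcccgcTATAAgtgcggcccgctg
Ftl1: gggtcaacatgcTATAAaaggagcgctcct

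The brightest Tfrc gene probe set, 162738_at on U74B, read 1512 without IL-3, 1129 at 30 min and 1818 at 2 h on the control siRNA arrays, and 1307 and 2250 at these times on the Stat5 siRNA arrays. Both 2 h arrays were above the other 3. The U74C probe set 139035_at read 374, 408 and 1014 with control siRNA and 406 and 819 with Stat5 siRNA, so its 2 h arrays stood apart from the others by more than on U74B. Its rise of 2.71-fold at 2 h was the 1 call among the 13 gene probe sets of all members, against the 2.49% of all probe sets called higher. The U74A probe set 103958_g_at read 638, 580 and 964 with control siRNA and 607 and 833 with Stat5 siRNA. The dimmest, 103957_at on U74A, read 72.8 and 73.9 without IL-3 and at 30 min, both under the floor, and 134 at 2 h, and 75.0 and 225 with Stat5 siRNA. On these 4 probe sets the order was the same at its upper end, with both 2 h conditions above the other 3. The order of control siRNA and Stat5 siRNA at 2 h was not, as Stat5 siRNA was the higher of them on 2 probe sets and the lower on 2.

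**Figure D1:**
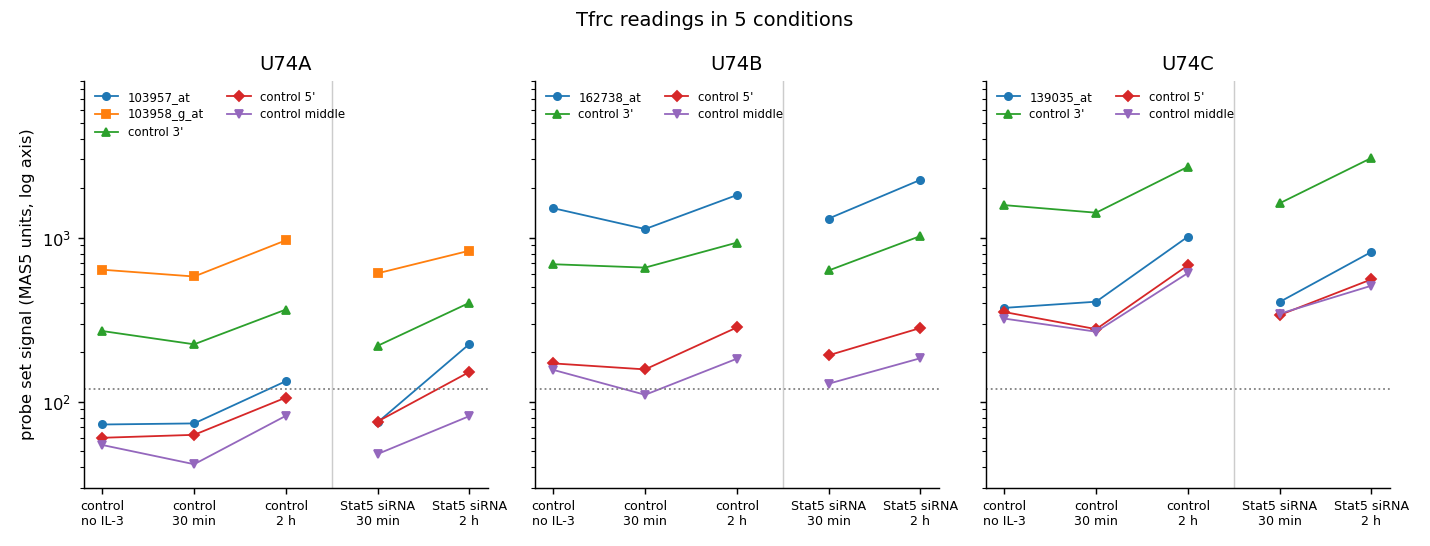
Signal of every Tfrc reading in the 5 conditions, in MAS5 units on a log axis, 1 panel per array design, with lines joining the arrays of 1 siRNA and the floor of 119.8 dotted. Each of the 13 lines ends higher at 2 h than at 30 min under both siRNAs, and both 2 h arrays lie above the other 3.

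The control probe sets read the 5' end, the middle and the 3' end of the Tfrc mRNA, with the same probes on all 3 designs. On U74C, where they were brightest, the 3' probe set read 1579 without IL-3, 1420 at 30 min and 2703 at 2 h with control siRNA, and 1620 and 3058 with Stat5 siRNA. On U74B it read 689, 657 and 933, and 631 and 1023, and on U74A 270, 224 and 365, and 220 and 401. The 2 h arrays were thus the highest on each design. Both 2 h arrays were above the other 3 on 9 of 9 control readings and 4 of 4 gene probe sets, 13 of 13 in all, an order that 19.1% of all probe sets reaching the floor had. It also held on 13 of 13 with median scaling and with quantile normalization, and median scaling put the lowest IL-3 ratio at 2 h at 0.05 in log2. These readings share their RNA and partly their probes, and they are not independent of each other.

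Over the 3 designs the 3' control probe set was higher at 2 h of IL-3 than without it by a log2 ratio of 0.55 ± 0.20 (SD, n = 3 arrays per condition). The 5' probe set gave 0.83 ± 0.11 and the middle one 0.58 ± 0.35 (SD, n = 3 each, signals not raised to the floor, with 2 of 3 designs measured). At 30 min the same 3 values were -0.16 ± 0.10, -0.14 ± 0.20 and -0.39 ± 0.12 for the 3', 5' and middle probe sets. The 2 h ratio was above 0 on 9 of 9 control readings, and the 30 min ratio was below 0 on 8 of 9. The mean differences at 2 h were larger than the SD between hybridisations, which leaves out the spread between cultures.

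In the same comparison the spread of a single log2 ratio, taken from 1241 pairs of probe sets for the same gene, was an SD of 0.32, and the Tfrc gene probe sets themselves ranged from 0.16 for 103957_at, a lower bound, to 1.44. The gene value of 0.43 was 1 median over 4 such probe sets. The 3' actin control was higher at 2 h by 0.33, 0.33 and 0.21 on U74A, U74B and U74C, and that of Gapdh by 0.04, 0.03 and 0.14. For each erythroid marker gene the highest probe set signal in a condition was taken, also under the floor, and summed, so the brightest genes weigh most. This sum was 1659 without IL-3, 1475 at 30 min and 957 at 2 h with control siRNA, and 2355 and 1807 with Stat5 siRNA. The part of these changes in the Tfrc ratio was not tested. In bulk RNA, fewer cells with the mRNA and less mRNA per cell cannot be told apart.

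With Stat5 siRNA at 30 min the 3' control probe set differed from control siRNA by a log2 ratio of 0.03 ± 0.14, the middle one by 0.26 ± 0.09 and the 5' one by 0.28 ± 0.0088 (SD, n = 3 arrays per condition, signals not raised to the floor). For the middle and 5' probe sets 2 of the 3 designs were measured, as their U74A signals were under the floor. The Tfrc gene value at that time was 0.06, and 10 of 13 readings were higher with Stat5 siRNA, against 8 with median scaling. The siRNA and IL-3 ratios at 30 min share the control siRNA arrays at 30 min. Low signals there would raise the siRNA ratio and lower the IL-3 ratio. At 2 h the 3' control probe set was higher by 0.15 ± 0.03, the 5' one differed by 0.07 ± 0.41 and the middle one by -0.08 ± 0.15 (SD, n = 3, the middle one with 2 of 3 designs measured). At 2 h the gene probe sets ran from -0.31 for 139035_at to 0.75 for 103957_at, with a gene value of 0.05. The middle and 5' values at 30 min came from arrays on which the 3' value did not move beyond its SD, and at 2 h the probe sets disagreed in sign. No Tfrc reading passed 2-fold in either siRNA comparison.

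**Figure D2:**
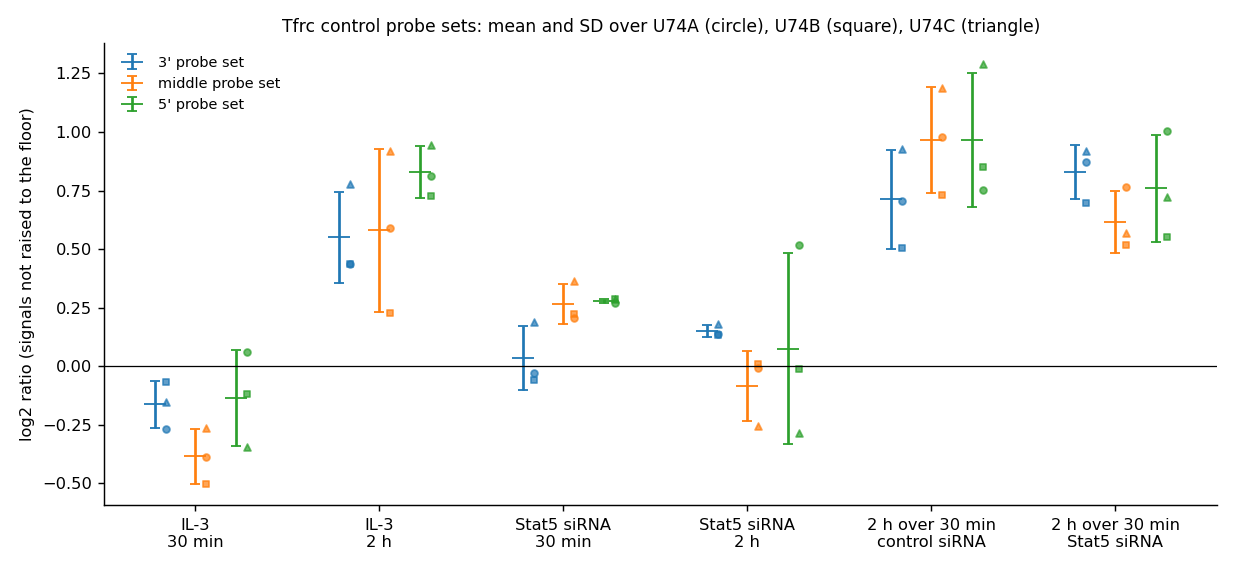
Log2 ratios of the 3 transferrin receptor control probe sets, with signals not raised to the floor, as single designs (circle U74A, square U74B, triangle U74C) and as the mean with its SD over the 3. The IL-3 ratios lie between 0.23 and 0.95 at 2 h, and the 2 h over 30 min ratios lie above 0 with either siRNA.

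The step from 30 min to 2 h of IL-3 can be read once with control siRNA and once with Stat5 siRNA, on arrays that are not shared. With control siRNA Tfrc was higher at 2 h on 13 of 13 readings, by 1.42-fold to 2.49-fold with signals as they stand, and its gene value, with dim signals set to the floor, was 1.64-fold. With Stat5 siRNA it was higher on 13 of 13, by 1.37-fold to 2.998-fold with signals as they stand, and its gene value with the floor was 1.80-fold. The 3' control probe set gave log2 ratios of 0.71 ± 0.21 on the control siRNA arrays and 0.83 ± 0.12 on the Stat5 siRNA arrays (SD, n = 3). The difference between them was 0.12 ± 0.11 and was positive on 2 of 3 designs. For the middle probe set it was -0.35 ± 0.23, below 0 on all 3 designs, though its signals on U74A stayed under the floor. For the 5' one it was -0.21 ± 0.42, with both control siRNA signals of this step on U74A under the floor. The regions of the mRNA thus did not give a shared direction for an effect of the siRNA on this step. With dim signals set to the floor, 3 of the 13 readings, all on U74C, passed 2-fold with control siRNA and 1 with Stat5 siRNA, where 1.97% and 1.67% of all probe sets passed upwards and 1.73% and 1.27% downwards. The U74C gene probe set 139035_at was among them each time, at 2.49-fold and 2.02-fold. With signals as they stand 3 readings passed with either siRNA, and those added with Stat5 siRNA were 103957_at at 2.998-fold and the 5' control on U74A at 2.003-fold, both with a 30 min signal under the floor. None of the 5 measured member genes passed 2-fold as a gene in this step, where 1.89% of all genes did so upwards and 1.65% downwards with control siRNA, and 1.64% and 1.19% with Stat5 siRNA.

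Fth1 encodes the heavy ferritin subunit, which oxidises iron as it enters the shell. Its one probe set without a cross-hybridisation suffix, 94794_at on U74A, read 2958 without IL-3, 3167 at 30 min and 2487 at 2 h with control siRNA, and 3100 and 3064 with Stat5 siRNA. The control siRNA array at 2 h was the lowest of the 5, and the other 4 lay close together. On U74B 109819_f_at read 3084, 2639 and 2419, and 2306 and 2185, with its highest signal without IL-3. On U74C 137155_f_at read 1710, 1929 and 1351, and 1505 and 1407, and 168912_f_at read 7789, 7394 and 6789, and 8311 and 8122. At 2 h of IL-3 these 4 probe sets were lower than without IL-3, by -0.20 to -0.35 in log2 ratio, while 161913_r_at on U74A was higher by 0.26. That probe set read 1194, 1339 and 1428, and 1468 and 1275. The gene value, from 94794_at alone, was -0.25, within the spread of 0.32, and 46.2% of all genes were above 0. From 30 min to 2 h with control siRNA 4 of the 5 were lower, by -0.12 to -0.51, and with Stat5 siRNA 5 of 5 were lower, by -0.02 to -0.20. With Stat5 siRNA at 2 h, 3 of the 5 were higher and 2 lower, from -0.16 to 0.30. Ferritin genes have many processed pseudogenes, and 4 of these 5 probe sets carry a suffix for possible cross-hybridisation.

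The light subunit Ftl1 was read from 99872_s_at on U74A alone, which the platform annotation gives to both Ftl1 and its pseudogene Ftl1-ps2, so its signal cannot be assigned to Ftl1. It read 5666 without IL-3, 6651 at 30 min and 6059 at 2 h, and 5835 and 6027 with Stat5 siRNA. The array without IL-3 was the lowest and the control siRNA array at 30 min the highest. The log2 ratios ran from -0.19 to 0.23 over the 4 comparisons. The siRNA ratio at 2 h was -0.0077 and reached 0.14 with other scalings.

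**Figure D3:**
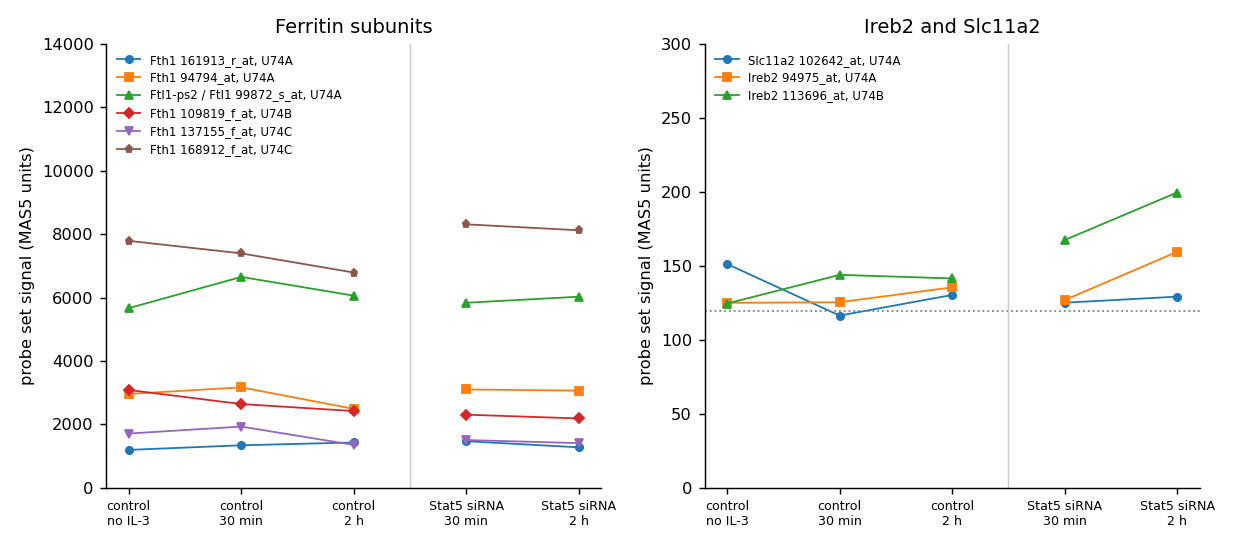
Signals in MAS5 units, on a linear axis from 0, of the ferritin probe sets (left) and of the Ireb2 and Slc11a2 probe sets that reached the floor (right, floor of 119.8 dotted) in the 5 conditions. Ireb2 is highest with Stat5 siRNA at 2 h on both of its probe sets, at 159 and 199.6, and no line changes by 2-fold.

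Ireb2 encodes IRP2, whose protein is degraded when iron is plentiful. On U74B 113696_at read 125 without IL-3, 144 at 30 min and 142 at 2 h with control siRNA, and 167 and 199.6 with Stat5 siRNA. On U74A 94975_at read 125.0, 125 and 135, and 127 and 159. Both probe sets lay near the floor, and both had their highest signal with Stat5 siRNA at 2 h. The siRNA ratio at 2 h was 0.50 on U74B and 0.24 on U74A in log2, with a gene value of 0.37, or 1.29-fold. The spread between probe sets of 1 gene in that comparison was 0.25. At 30 min the siRNA ratios were 0.22 and 0.02, and the IL-3 ratios were 0.0048 on U74A and 0.21 on U74B. The gene value at 2 h with Stat5 siRNA stayed between 0.36 and 0.50 over the alternative settings in which it was measured. With the floor doubled Ireb2 was not measured. The remaining probe set, 164563_r_at on U74B, read between 1.49 and 7.17 and stayed under the floor.

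Slc11a2 encodes the transporter that carries iron across the endosomal membrane. On U74A 102642_at read 151 without IL-3, 116 at 30 min and 130.3 at 2 h with control siRNA, and 125 and 129 with Stat5 siRNA. The array without IL-3 was the highest, and the other 4 lay between 116 and 130.3, near the floor. The IL-3 ratio was -0.34 or lower in log2 at 30 min, a bound because the 30 min signal was under the floor, and -0.21 at 2 h. The siRNA ratios were 0.06 and -0.01, of which the second reached 0.09 with another scaling. The second Slc11a2 probe set, 104451_at, read between 19.8 and 43.1 and stayed under the floor.

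Aco1 encodes IRP1, which is a cytosolic aconitase when it carries an iron-sulphur cluster. Both of its probe sets stayed under the floor on all 5 arrays, so no ratio was taken. On U74A 100147_at read between 2.38 and 6.47. On U74C 137501_f_at, of a kind that can cross-hybridise, read 73.96 and 60.9 without IL-3 and at 30 min and 7.69 at 2 h with control siRNA, and 7.32 and 26.9 with Stat5 siRNA.

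**Figure D4:**
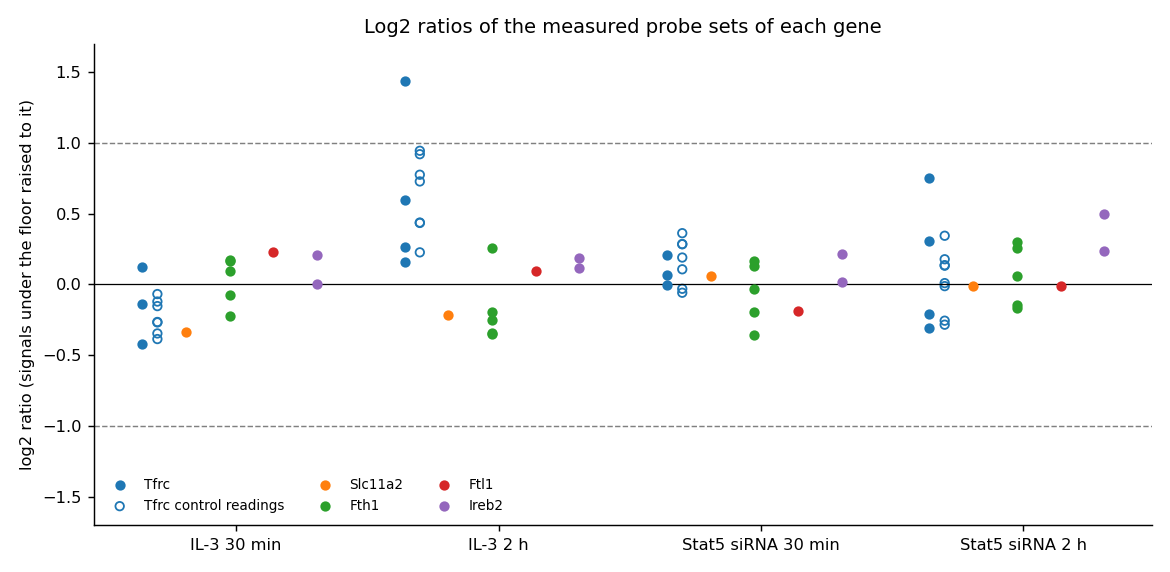
Log2 ratio of each measured probe set of the 5 genes that reached the floor, with Tfrc control readings as open circles and the 2-fold lines dashed, in the 4 comparisons. The 1 point beyond a dashed line is the U74C probe set of Tfrc at 2 h of IL-3, at 1.44.

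The wider iron pathway was read from 7 lists with 91 genes in all, of which 54 were measured in each IL-3 comparison. At 30 min of IL-3 0 of 54 were past 2-fold, against 0.711% of all genes higher and 0.343% lower. At 2 h 0 rose and 2 fell, against 2.45% and 1.63% of all genes, and the lists' median log2 ratio was -0.04 beside -0.03 over all genes. With Stat5 siRNA 0 of 53 at 30 min and 0 of 52 at 2 h were past 2-fold, against 0.308% of all genes higher and 0.382% lower at 30 min and 0.504% and 0.43% at 2 h. The lists' medians were -0.04 and -0.01 in these comparisons, beside 0.00 over all genes in each.

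Both genes that fell at 2 h of IL-3 stood on lists downstream of iron uptake. Bach1, a haem-sensing transcriptional repressor of Hmox1 and the ferritin genes, read 366 without IL-3, 464 at 30 min and 158 at 2 h with control siRNA, and 279 and 198 with Stat5 siRNA, on 94415_at of U74A. It was 2.31-fold lower at 2 h, and with Stat5 siRNA it differed by -0.73 at 30 min and 0.32 at 2 h in log2. Its 2 h arrays were the lowest, and Hmox1, the inducible haem oxygenase, had ratios of 0.24 and 0.31 at 30 min and 2 h of IL-3. Hscb, a co-chaperone of iron-sulphur cluster transfer, read 724, 628 and 310 with control siRNA and 696 and 477 with Stat5 siRNA on 106666_at of U74B. It was 2.34-fold lower at 2 h of IL-3, and 0.62 higher in log2 with Stat5 siRNA at 2 h, a ratio that shares the control siRNA array at 2 h with the first. The median over the 7 measured genes of haem breakdown and transport was 0.25 at 30 min and 0.24 at 2 h of IL-3, and 0.16 and 0.25 with Stat5 siRNA, with 4 or 5 of the 7 above 0. These comparisons share arrays. Of 22 measured genes of iron-sulphur cluster assembly 6 were above 0 at 2 h of IL-3, with a median of -0.10, beside 46.2% of all genes.

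The other 5 lists held no gene value past 2-fold, their medians lay between -0.09 and 0.15 in the 4 comparisons, and their largest gene values were these. Among 10 measured genes of iron uptake and transport, Slc39a14, a zinc and iron importer, had a gene value of 0.69 or higher at 2 h of IL-3. It is a bound because both measured probe sets were under the floor without IL-3. Its brightest probe set, 112445_at, read 118, 108 and 303 with control siRNA and 116 and 214 with Stat5 siRNA. By itself that probe set passed 2-fold at 2 h of IL-3. Its 2 h arrays were the highest, as for Tfrc. Mcoln1, a lysosomal cation channel, had -0.53 with Stat5 siRNA at 2 h, from 163093_at alone. That probe set read 446, 955 and 902 with control siRNA and 923 and 625 with Stat5 siRNA. By itself it passed 2-fold at 30 min and at 2 h of IL-3. The gene values there, medians with a dimmer probe set near the floor, were 0.41 and 0.37. Among 3 storage genes Pcbp1, an iron chaperone for ferritin, had 0.35 at 2 h of IL-3, and Ncoa4, the receptor that carries ferritin to autophagy, had -0.23. The Pcbp1 value came from 94552_at alone. A dimmer Pcbp1 probe set that can cross-hybridise, 170769_r_at, went the other way, from 156 without IL-3 to 134 at 2 h with control siRNA. On the list of IRP control and mRNAs with iron-responsive elements, Cul1, a scaffold of the ubiquitin ligase family that degrades IRP2, had -0.49 with Stat5 siRNA at 2 h and 0.42 with IL-3 at 2 h, from 94002_at alone. A brighter Cul1 probe set that can cross-hybridise, 164497_r_at, read 1344, 1357 and 1856 with control siRNA and 1318 and 1780 with Stat5 siRNA. It thus showed little of the siRNA difference at 2 h. Cdc14a, read only from a probe set that can cross-hybridise, had 0.46 with Stat5 siRNA at 30 min and -0.46 or lower with IL-3 at 2 h. In haem synthesis Tmem14c, a mitochondrial porphyrin transporter, had -0.69 with Stat5 siRNA at 30 min and Alad, the second enzyme of the pathway, had 0.42 in the same comparison. Of the 12 export and systemic genes 1 was measured in each comparison, Tmprss6 at 30 min and Hp at 2 h. Each had a single signal above the floor, 121 for Tmprss6 at 30 min and 122 for Hp at 2 h, both with control siRNA, so its ratios are bounds and the size of its changes was not measured.

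**Figure D5:**
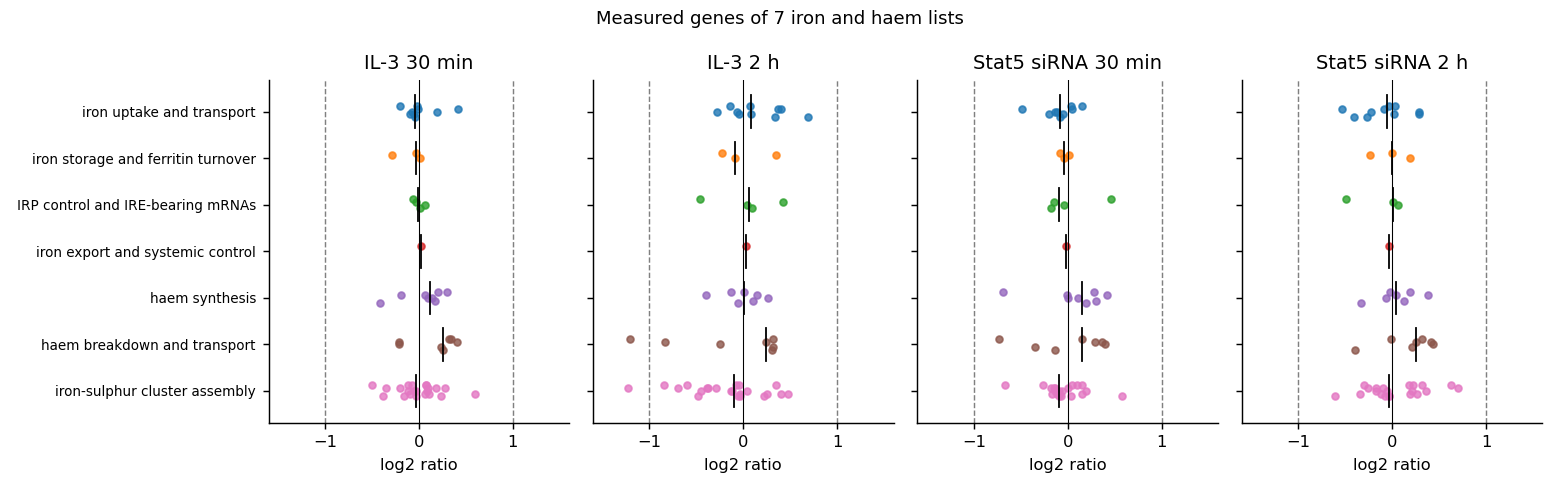
Log2 ratio of every measured gene on the 7 iron and haem lists, in the 4 comparisons, with the list median as a vertical bar and the 2-fold lines dashed. Bach1 and Hscb, at -1.21 and -1.22 in the IL-3 comparison at 2 h, are the only points beyond a dashed line.

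The 5 genes closest to Tfrc were found by the root mean square difference of 4 log2 ratios to the unstimulated array. The 7442 candidate probe sets were each set against the brightest Tfrc gene probe set of their own design. The closest were Prpf38b (0.07), Gar1 (0.08), Rrp15 (0.08), Tspan4 (0.08) and Mafk (0.09), all on U74A except Rrp15 on U74C. Those on U74A were thus near 103958_g_at, and none was near 162738_at of U74B. Rrp15 followed 139035_at and read 1496, 1615 and 4036 with control siRNA and 1698 and 3644 with Stat5 siRNA. Its high 2 h arrays follow from the choice by likeness. Gar1 followed 103958_g_at and read 1402, 1283 and 1900, and 1358 and 1886, with a smaller step at 2 h. The likeness rests on 5 arrays per design and is a description.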

How the data were processed

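Total RNA was labelled and hybridised to U74A, U74B and U74C arrays, per the labels' protocols. The authors computed 1 linear intensity per probe set with MAS5 and deposited it, per the submitters' processing notes and design text; scan batches are not given in the sources used here. As deposited, the mean intensity without the top and bottom 2% of probe sets ran from 150.04 to 150.1. Each array was scaled to 150 here, and the floor was set where 14553 of 36701 non-control probe sets reached it on their highest array, the number the design text gives. Names came from the platform annotation: 29131 probe sets had 1 symbol, 724 several and 6846 none. A gene was given the median of the probe sets measured for it; those ending in _f_at, _r_at, _i_at or _x_at entered only where no other was measured. Named were all member probe sets, list genes past 2-fold or otherwise the 2 largest per list, the siRNA check and the 5 genes nearest to Tfrc. Members, lists and motifs were chosen with earlier results of these data known. The step from 30 min to 2 h, the TATAA motif and leaving out U74C for Tfrc were added after seeing the data. The ratio steps were tested on simulated data. Python 3.11.15, NumPy 2.4.6, pandas 2.3.3 and matplotlib 3.10.9 were used. The number of arrays limits the precision.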

Additional observations from a re-analysis of the deposited data

Results flagged for a closer look

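On the 3' and middle transferrin receptor control probe sets the IL-3 ratio was below 0 at 30 min and above 0 at 2 h on all 3 designs. The 5' probe set did not share this, as on U74A its ratio was 0.06 at 30 min and 0.81 at 2 h. For the 3' probe set the mean log2 ratio was -0.16 at 30 min and 0.55 at 2 h, a difference of 0.71, with 3 of 3 arrays below 0 at 30 min and 3 of 3 above 0 at 2 h. For the middle probe set the means were -0.39 and 0.58, a difference of 0.97, with the same split. Each difference is the step from 30 min to 2 h with control siRNA, as the array without IL-3 cancels out of it. It is not a separate result and was not tested. Both ratios share the array without IL-3, so a high signal on that array would lower both, and the middle probe set stayed under the floor on U74A.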

How the results depend on the processing

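No paired analysis was possible because each condition had 1 array per design. The count of members past 2-fold was 0 in each of the 4 comparisons under all 8 alternatives. The Tfrc gene value at 2 h of IL-3 ran from 0.27 to 0.74 and did not change sign. Of 331 alternative values 7 moved by more than the spread between probe sets of 1 gene. The other 324 include the counts of members past 2-fold, which have no such spread. They also include values that a setting could not change, such as Ftl1 with its only probe set under another choice of probe sets. A value changed sign in 8 of the 331, each a Stat5 siRNA ratio near 0. The Tfrc value with Stat5 siRNA at 2 h was 0.31 with the brightest probe set, 0.31 without U74C and -0.21 with the floor doubled, and the Tfrc value at 30 min of IL-3 was -0.42 with the brightest probe set. Its value with Stat5 siRNA at 30 min turned to -0.04 under median scaling, and that of the 3' control probe set to -0.03, and to -0.04 without U74C. At 2 h the 5' control probe set turned to -0.15 with the floor doubled, Slc11a2 to 0.09 under median scaling, and Ftl1 to 0.10 under median scaling and 0.14 under quantile normalization. Aco1 was measured only with the floor halved, and Ireb2 and Slc11a2 were not measured with the floor doubled. Median scaling added a constant to every log2 ratio of a design, which was over 0.1 in size on U74C with IL-3 (0.18 at 30 min and 0.23 at 2 h), on U74B with IL-3 at 2 h (-0.18) and on U74A with Stat5 siRNA (-0.11 at 30 min and 0.10 at 2 h). Signals near the floor limit Ireb2, Slc11a2 and Aco1.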

Other observations

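The same control probes gave different levels on the 3 designs after scaling. The 3' transferrin receptor probe set was 5.85 to 7.62 times as bright on U74C as on U74A over the 5 conditions, that of actin 5.16 to 6.30 times and that of Gapdh 4.80 to 5.70 times. On U74B the ranges were 2.55 to 2.93, 2.24 to 2.76 and 2.15 to 2.41 times.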
